A study of Mus musculus with 10 samples.

Results

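Granzymes are serine proteases that killer lymphocytes keep in secretory granules, and the genes described here are 6 of them, Gzma, Gzmb, Gzmc, Gzmf, Gzmk and Gzmm, together with Prf1 (perforin) and Nkg7, a membrane protein of the same granules. These 8 genes were taken by name from the 32285 in the matrices, and each was followed across lymphocytes gated by other genes and across the treatments. The tissue was mouse liver carrying metastases of colorectal cancer origin, profiled by 10x droplet RNA sequencing of single cells, with the T cell receptor V(D)J reads taken from those cells too. The combination group, labelled IFNa + aCTLA4, was liver 22, from the cohort given IFNa together with a-CTLA-4, read here as an antibody to CTLA-4. The IFNa group was livers 18 and 23, from mice given the IFNa LV. The Control group was livers 11 and 25, from mice given the Control LV. LV is read here as lentiviral vector. The series title speaks of macrophages engineered in vivo, and the labels used here name neither the promoter of the vectors nor the mouse strain or age. No label ties a liver to an animal, so the spread among these libraries may in part be technical. The p-values rest on that spread together with a spread that edgeR shares over genes. Where a group has a lone library, a p-value does not measure the spread within that group. The lone combination library is assumed to vary like the others.

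As background, perforin opens pores in the membrane of a target cell, and granzymes enter through them. Granzyme B, from Gzmb, cleaves proteins after aspartate and starts apoptosis, granzymes A and K are tryptases, and granzyme M cleaves after methionine or leucine. Gzmc and Gzmf belong to a group of granzymes that rodents have and humans lack. Nkg7 is needed for efficient release of the granules. The liver holds innate lymphocytes of more than 1 kind, circulating natural killer (NK) cells, which express the transcription factor Eomes, and resident ILC1, which do not. CD8 T cells in tumours range over naive cells, stem-like cells with PD-1 and Tcf7, and exhausted cells with PD-1 and Tim-3 (Havcr2). Type I interferons such as IFNa are known to increase the cytotoxic function of NK and T cells, and CTLA-4 is a checkpoint receptor that regulatory T cells carry.

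Gzma and Gzmk both lie on mouse chromosome 13 (GRCm38; chr13:113093825-113100981, minus strand, and chr13:113171608-113225908, minus strand). Gzmb (chr14:56258838-56262260, minus strand), Gzmc (chr14:56231441-56234656, minus strand) and Gzmf (chr14:56205263-56211417, minus strand) lie in a cluster on chromosome 14. Gzmm (chr10:79689020-79695261, plus strand), Prf1 (chr10:61297833-61304680, plus strand) and Nkg7 (chr7:43437073-43438249, plus strand) lie elsewhere. These spans, from the GENCODE vM21 annotation, are whole genes, exons and introns included. The chromosome 14 genes are close copies of each other, so reads may have been split or lost between them, which was not tested.

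For Gzmb, Gzmc and Gzmk, and for Gzmf, which was low in every gate, the 250 bases before the RefSeq start (GRCm38.p6, all on the minus strand) are shown as they read along the gene. Capitals mark matches, on either strand, to the letters of a motif: AGGTGT (T-box), TGANTCA (AP-1), TGACGTCA (CRE-type) or TGTGGT (Runx).
Gzmb, chr14:56262335-56262584: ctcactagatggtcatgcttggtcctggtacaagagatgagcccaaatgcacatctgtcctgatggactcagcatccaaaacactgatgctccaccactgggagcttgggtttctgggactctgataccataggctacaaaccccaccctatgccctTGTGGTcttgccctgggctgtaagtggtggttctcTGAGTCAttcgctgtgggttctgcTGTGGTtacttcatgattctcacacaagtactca
Gzmc, chr14:56234658-56234907: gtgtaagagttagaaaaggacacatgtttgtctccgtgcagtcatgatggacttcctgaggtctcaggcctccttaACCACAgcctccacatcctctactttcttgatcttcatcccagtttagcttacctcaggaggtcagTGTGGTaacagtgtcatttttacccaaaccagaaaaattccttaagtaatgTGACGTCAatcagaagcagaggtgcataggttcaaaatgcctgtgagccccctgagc
Gzmf, chr14:56211408-56211657: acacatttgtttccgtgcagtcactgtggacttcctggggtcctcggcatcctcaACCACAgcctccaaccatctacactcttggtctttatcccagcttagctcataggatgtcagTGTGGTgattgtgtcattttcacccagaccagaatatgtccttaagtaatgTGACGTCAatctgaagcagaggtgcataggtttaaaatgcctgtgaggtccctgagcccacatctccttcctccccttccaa
Gzmk, chr13:113180966-113181215: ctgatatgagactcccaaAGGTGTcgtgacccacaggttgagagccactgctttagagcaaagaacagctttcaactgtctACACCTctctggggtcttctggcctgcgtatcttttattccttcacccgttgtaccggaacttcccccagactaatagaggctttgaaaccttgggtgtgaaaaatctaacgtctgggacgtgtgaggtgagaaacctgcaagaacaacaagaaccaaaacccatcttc
Gzmc and Gzmf were identical at 193 of 250 aligned bases (77.2%), and the other 27 pairs among the 8 genes at 46.8% to 54.8%. Both held the same CRE-type letters, 57 to 50 bases before the start in Gzmc and 82 to 75 bases before it in Gzmf, and 1.55% of 32851 promoter windows of this length hold that motif. Gzmb alone among the 8 held the AP-1 letters, 58 to 52 bases before the start, against 6.75% of windows. Gzmk held the T-box letters at more than 1 place, at 232 to 227 and 169 to 164 bases, and Gzma, Prf1 and Nkg7 held them once each, at 80 to 75, 24 to 19 and 14 to 9 bases, against 11.8% of windows. The Runx letters lay in every window except that of Gzmk, against 14% of windows. No match overlapped another motif. The RefSeq starts are not always those of the GENCODE spans above. The Gzmk window lies inside the GENCODE span of Gzmk, and the Gzmf, Prf1 and Nkg7 windows overlap theirs. Which start these cells use was not tested. A match describes letters in these windows and shows no binding.

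The 5 gene expression libraries held 863 to 9605 barcodes and 10464216 to 69856071 UMIs, and 26229 barcodes were kept after filters on genes, mitochondrial UMIs and doublets. Control library 25 was the smallest in both, with 844 kept cells. Pairs of libraries shared 4 to 81 barcode sequences. Gates used UMIs of lineage and state genes and T cell receptor chains, and none of the 8 genes. They gave 3525 CD8 T cells, 1145 conventional and 466 regulatory CD4 T cells, 769 NK cells and 171 ILC1-like cells. Over the libraries, 11 NK markers summed to 4829 to 5191 CPM in NK cells and 1730 to 2086 CPM in ILC1-like cells, 8 ILC1 markers summed to 1345 to 3293 CPM in ILC1-like cells and 119 to 236 CPM in NK cells, and the CD8 T cell markers stayed at 2.72 CPM or below in both. The exhausted markers summed to 3285 to 4398 CPM in exhausted-like and 169 to 241 CPM in naive-like CD8 cells. These lists share genes with the gate rules, so part of each difference was fixed by the gates. Shared were Ncr1, Klrb1c and Eomes (NK), Cd200r1, Il7r, Cxcr6 and Itga1 (ILC1), Cd3e (CD8 T) and Pdcd1 and Havcr2 (exhausted). CPM here is the UMIs of a gene per 1000000 UMIs summed over the cells of a gate in a library, and sums of under 10 cells were not used.

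Gzma was highest in NK cells, above all in those with markers of maturity. Its median level was 9318 CPM (range 8526 to 11522) in mature NK cells and 3011 CPM (range 2731 to 3990.5) in other NK cells. Exhausted-like CD8 cells, ILC1-like cells and gamma-delta T cells came next, at medians of 997, 941 and 936 CPM, with ranges over libraries that overlapped one another. Regulatory CD4 cells had 2.05 CPM (range 0 to 12.8), against 3.42 CPM (range 1.01 to 7.88) in B cells, and the combination and IFNa 18 libraries alone stood above that range.

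Gzmb was spread over more kinds of cell. The medians were 1676 CPM (range 898 to 2569.6) in exhausted-like CD8 cells, 1532 CPM (range 691 to 2293) in mature NK cells and 1052 CPM (range 133 to 1730.1) in ILC1-like cells, and these ranges overlapped. Regulatory CD4 cells had 541 CPM (range 277 to 617), where the medians of effector CD4 and naive-like CD8 cells were 131 and 80.8 CPM. B cells stood at 0.672 CPM. Prf1, in contrast with Gzmb, was low in regulatory CD4 cells, with 7.13 CPM (range 5.22 to 73.2) there and 2.10 CPM in B cells. Its highest medians were 839 CPM (range 697 to 1026) in mature NK cells and 671 CPM (range 511 to 1039) in exhausted-like CD8 cells, which overlapped, while ILC1-like cells had 94.1 CPM.

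Gzmc was found in ILC1-like cells, at 379 CPM (range 199 to 862), and in exhausted-like CD8 cells, at 266 CPM (range 47.1 to 710.5), and these ranges overlapped. In both gates single barcodes held a large part of the UMIs of some libraries, as given below. Mature NK cells had a median of 3.36 CPM. Gzmk was highest in CD8 T cells with activation markers, with medians of 139.8 CPM in exhausted-like, 125 CPM in stem-like and 117 CPM in antigen-experienced PD-1-negative CD8 cells, whose ranges overlapped. Effector CD4 cells had a median of 58.1 CPM, and their range overlapped those of the CD8 states. Conventional CD4 cells as a whole had 57.1, 97.9, 21.8, 34.4 and 139 CPM in the combination, IFNa 18, IFNa 23, Control 11 and Control 25 libraries. Their difference from CD8 cells, -0.88 ± 0.41 (SE) on the log2 scale, was not called (edgeR adjusted p = 0.218), but it was without IFNa library 18, at -1.48 (edgeR adjusted p = 0.000781). Mature NK cells had 17.6 CPM of Gzmk, and ILC1-like cells had 0 in all libraries but IFNa 23, which held 6.005 CPM. Gzmm ran the other way within CD8 cells, with 31.8 CPM in naive-like and 2.57 CPM in exhausted-like cells. Nkg7 was the broadest, with medians of 3535 CPM in exhausted-like CD8 cells, 3425 CPM in mature NK cells, 936 CPM in naive-like CD8 cells and 291 CPM in regulatory CD4 cells, against 5.78 CPM in B cells. Gzmf was found in so few UMIs that it never passed the filter for low counts.

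**Figure D1:**
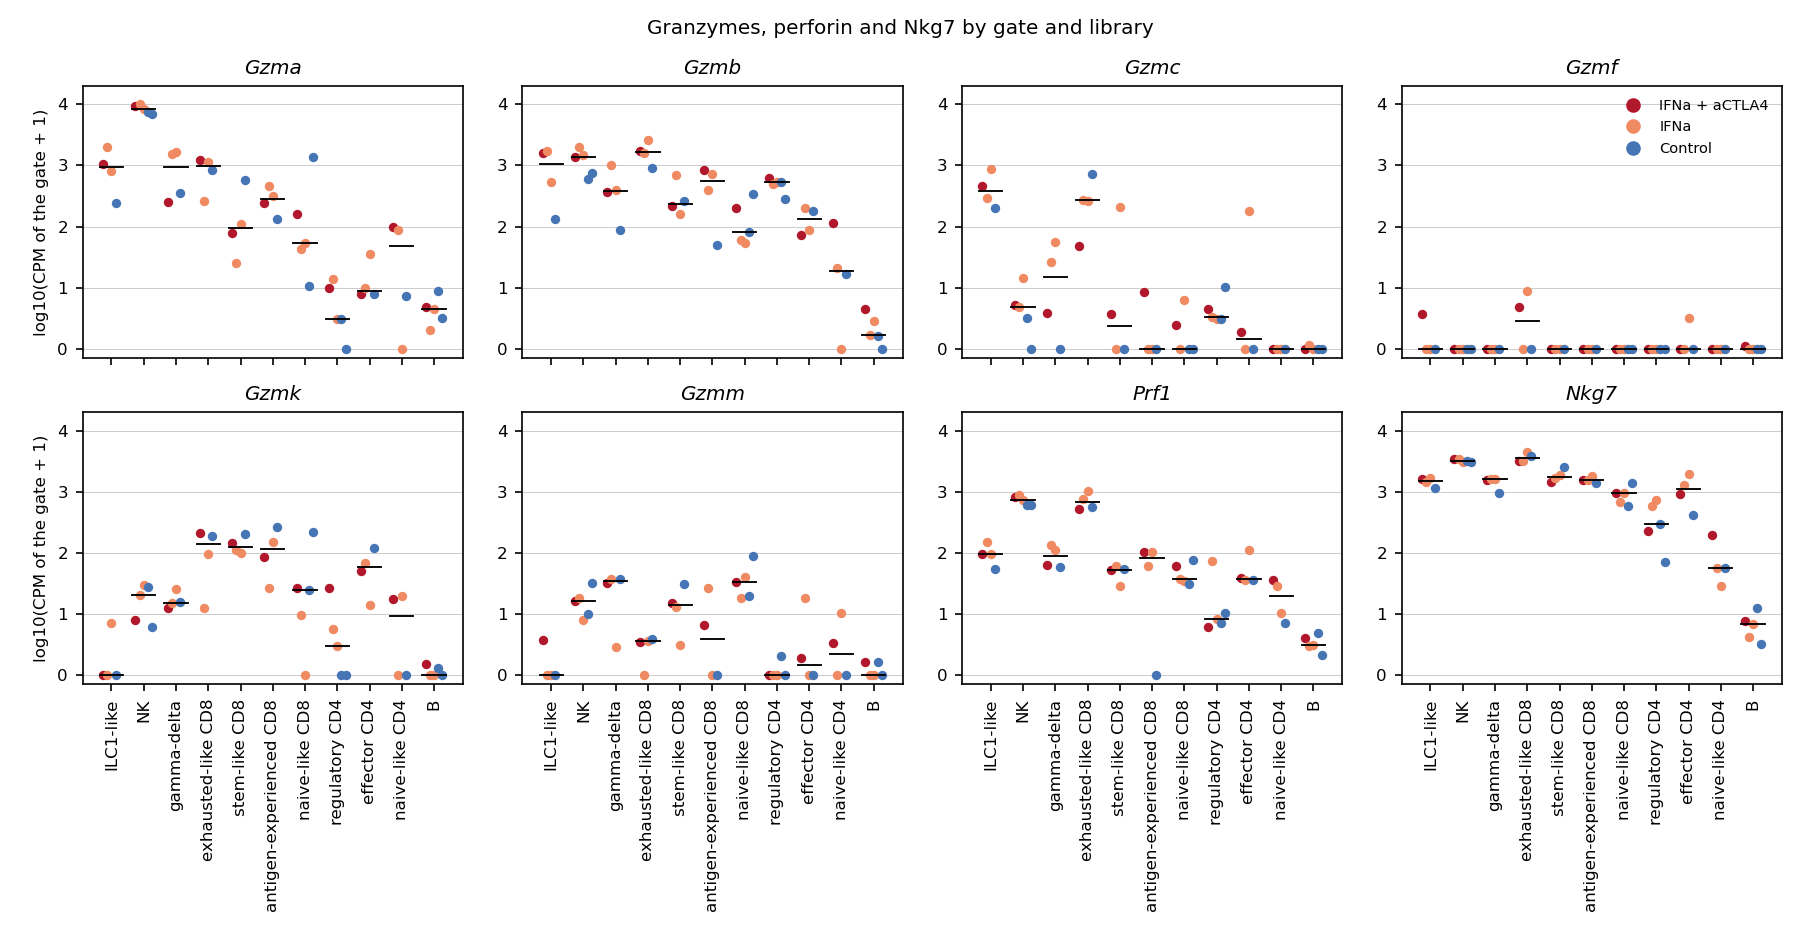
Levels of the 8 genes on the y axis, as log10(CPM + 1), by gate on the x axis, with 1 point for each library of at least 10 cells coloured by treatment. The black bar is the median over libraries. Gzma is highest in NK cells, from 6905 to 10078 CPM, and Gzmc has its highest median in ILC1-like cells, 379 CPM.

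ILC1-like cells and NK cells, the innate lymphocytes, differed in their granzymes. Relative to NK cells, ILC1-like cells were high in Gzmc and low in Gzma, Prf1, Nkg7 and Gzmk. Of the 8 genes, 6 passed the filter and 5 were called at an adjusted p under 0.05, 1 higher and 4 lower, where 8.42% of all 7819 genes tested were called. Their median log2 fold change was -2.04, against 0.01 over all genes. The fits paired both gates within 4 libraries.

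In ILC1-like cells Gzmc stood at 462 CPM in the combination library, 295 and 862 CPM in IFNa libraries 18 and 23 and 199 CPM in Control library 11. In NK cells it stood at 4.23 CPM in the combination library, 3.87 and 13.3 CPM in IFNa libraries 18 and 23 and 2.21 and 0 CPM in Control libraries 11 and 25. The groups did not overlap, and the log2 fold change was 6.19 ± 0.21 (SE), a 73.2-fold difference (edgeR adjusted p = 6.47e-14). These ILC1-like UMIs came from few cells, since 14, 5, 16 and 3 cells held any of them in the combination, IFNa 18, IFNa 23 and Control 11 libraries, and the top barcode held 44 of 170, 43 of 76, 92 of 287 and 8 of 15 UMIs.

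In ILC1-like cells Gzma stood at 1062 CPM in the combination library, 1995 and 819.6 CPM in IFNa libraries 18 and 23 and 239 CPM in Control library 11. In NK cells Gzma stood at 9307 CPM in the combination library, 10078 and 8277 CPM in IFNa libraries 18 and 23 and 7566 and 6905 CPM in Control libraries 11 and 25. Again the groups did not overlap, and ILC1-like cells had a log2 fold change of -3.22 ± 0.23 (SE) (edgeR adjusted p = 5.67e-09). Prf1 was 95.1, 148, 93.1 and 53.1 CPM in ILC1-like cells of the combination, IFNa 18, IFNa 23 and Control 11 libraries, against 814, 871, 741 and 611 CPM in NK cells of the same libraries, and its log2 fold change was -2.91 ± 0.17 (SE) (edgeR adjusted p = 2.05e-10). Nkg7 was lower by a smaller step, at 1589, 1435, 1690.3 and 1129 CPM in ILC1-like cells against 3473, 3449, 3080 and 3199.9 CPM in NK cells, a log2 fold change of -1.17 ± 0.12 (SE) (edgeR adjusted p = 1.12e-06). Gzmk also fell, by a log2 fold change of -3.19 ± 0.77 (SE) (edgeR adjusted p = 0.00968), and lost the call without IFNa library 23, the only one with Gzmk UMIs in ILC1-like cells (edgeR adjusted p = 0.0586). Gzmb was the only tested member that was not called, which does not show that the cells are equal. It was 1573, 1730.1, 531 and 133 CPM in ILC1-like cells and 1372, 1996, 1479 and 600.3 CPM in NK cells, in the same library order, with overlapping values and a log2 fold change of -0.64 ± 0.23 (SE) (edgeR adjusted p = 0.107).

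Within NK cells, those with at least 2 UMIs of the maturity genes Itgam, S1pr5, Klrg1 and Zeb2 had more of 4 of the 5 members tested, where 3.62% of all 6763 genes were called. Gzma was 11522, 9318 and 8526 CPM in mature NK cells of the IFNa 18, IFNa 23 and Control 11 libraries, against 3990.5, 3011 and 2731 CPM in other NK cells, a log2 fold change of 1.56 ± 0.07 (SE) (edgeR adjusted p = 4.33e-12). Prf1 followed at 1026, 839 and 697 CPM against 281, 359.7 and 294 CPM, a log2 fold change of 1.43 ± 0.14 (SE) (edgeR adjusted p = 1.17e-06). Neither pair of groups overlapped. Gzmb rose by 1.15 ± 0.11 (SE) (edgeR adjusted p = 4.02e-07) and Nkg7 by 0.63 ± 0.08 (SE) (edgeR adjusted p = 3.92e-05) on the log2 scale. Gzmk, at 0.34 ± 0.56 (SE), was not called (edgeR adjusted p = 0.875). The median of the 5 was 1.15, against 0.00 over all genes.

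Set against NK cells, CD8 T cells as a whole had more Gzmc, Gzmk and Gzmm and less Gzma, Prf1, Gzmb and Nkg7. All 7 members tested were called, where 31% of 10324 genes were, and their median log2 fold change was -0.67, against 0.02 over all genes. The Gzmb values, given below with the treatments, overlapped between CD8 and NK cells, though each library was lower in its own CD8 cells. The Gzmb call was lost with no replicate block, at -0.72 (edgeR adjusted p = 0.165). In CD8 cells Gzma was 600.2 CPM in the combination library, 275 and 662 CPM in IFNa libraries 18 and 23 and 451 and 1984 CPM in Control libraries 11 and 25, all below the NK values above, with a log2 fold change of -3.63 ± 0.33 (SE) (edgeR adjusted p = 7.45e-07). In CD8 cells Gzmk was 148 CPM in the combination library, 26.4 and 88.5 CPM in IFNa libraries 18 and 23 and 116 and 175 CPM in Control libraries 11 and 25. In NK cells it was 7.05 CPM in the combination library, 19.4 and 28.9 CPM in IFNa libraries 18 and 23 and 26.5 and 5.13 CPM in Control libraries 11 and 25. The IFNa 18 CD8 value fell within the NK range, the other CD8 values lay above it, and the log2 fold change was 2.18 ± 0.33 (SE) (edgeR adjusted p = 9.75e-05). In CD8 cells Gzmm was 14.8 CPM in the combination library, 19.7 and 18.03 CPM in IFNa libraries 18 and 23 and 23.3 and 112 CPM in Control libraries 11 and 25. In NK cells it was 15.5 CPM in the combination library, 17.4 and 6.94 CPM in IFNa libraries 18 and 23 and 8.83 and 30.8 CPM in Control libraries 11 and 25. These overlapped, and the log2 fold change was 0.98 ± 0.26 (SE) (edgeR adjusted p = 0.00942). That call was lost without IFNa library 23 (edgeR adjusted p = 0.0548) and when barcodes were thinned before gating (edgeR adjusted p = 0.136). The CD8 gate of Control library 11 also held 1762 CPM of 4 neutrophil markers, against at most 336 CPM in the other libraries, and their part in these results was not tested.

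Among CD8 cells, the exhausted-like state had the highest Gzmb, Prf1 and Nkg7, and the naive-like state the highest Gzmm. Gzma, Gzmb, Gzmc, Gzmk, Prf1 and Nkg7 were higher and Gzmm was lower in exhausted-like than in naive-like cells. All 7 members tested were called, where 35.8% of 8204 genes were, and their median log2 fold change was 3.58, against 0.00 over all genes. Exhausted-like cells needed UMIs of Pdcd1 and Havcr2, and naive-like cells needed UMIs of naive T cell genes, Ccr7 and Lef1 among them, with no UMI of Pdcd1, Havcr2 or Cd44. The median exhausted-like cell held 7841 to 8455.5 UMIs by library, and the median naive-like cell 5614 to 7064 in the same 4 libraries.

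In exhausted-like cells Gzmb was 1731 CPM in the combination library, 1622 and 2569.6 CPM in IFNa libraries 18 and 23 and 898 CPM in Control library 11. In naive-like cells Gzmb was 203 CPM in the combination library, 59.1 and 52.02 CPM in IFNa libraries 18 and 23 and 80.8 and 341 CPM in Control libraries 11 and 25. The lowest exhausted-like value exceeded the highest naive-like value, and the log2 fold change over the 4 libraries with both gates was 3.88 ± 0.31 (SE), 14.7-fold (edgeR adjusted p = 1.43e-06). Prf1 was 511, 773, 1039 and 569.5 CPM in exhausted-like cells of the combination, IFNa 18, IFNa 23 and Control 11 libraries, against 59.9, 36.04, 33.8 and 30.1 CPM in naive-like cells, 14.2-fold higher at a log2 fold change of 3.83 ± 0.24 (SE) (edgeR adjusted p = 1.94e-07). Gzma was 1237, 256, 1142 and 851 CPM in the exhausted-like and 159.6, 41.8, 52.02 and 9.51 CPM in the naive-like cells of these libraries, without overlap, at a log2 fold change of 3.58 ± 0.37 (SE) (edgeR adjusted p = 1.21e-05). Control library 25, with 10 naive-like cells, lay apart from them at 1348 CPM, of which 66 of 91 UMIs were in 1 barcode.

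Gzmm was 2.54, 0, 2.59 and 2.94 CPM in exhausted-like cells, against 31.8, 17.3, 39.01 and 19.02 CPM in naive-like cells of the same libraries. The ranges did not overlap, and exhausted-like cells were 13.98-fold lower, at a log2 fold change of -3.81 ± 0.44 (SE) (edgeR adjusted p = 2.54e-05). Gzmk was 212, 11.3, 94.7 and 185 CPM in exhausted-like and 25.1, 8.65, 0 and 23.8 CPM in naive-like cells. These overlapped through the low IFNa 18 value, but every library was higher in its own exhausted-like cells, and the log2 fold change was 2.85 ± 0.36 (SE) (edgeR adjusted p = 5.64e-05). Control library 25, with too few exhausted-like cells to enter, held 222 CPM of Gzmk in its 10 naive-like cells, above every exhausted-like value. Nkg7 rose by 2.03 ± 0.13 (SE) on the log2 scale (edgeR adjusted p = 2.2e-07), with naive-like cells at 936, 685, 952 and 572 CPM.

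Of 6 members tested, 5 were called higher in exhausted-like than in stem-like cells and Gzmk was not called, where 7.54% of 6901 genes were called, and the median log2 fold change was 2.42, against 0.00 over all genes. The call of Gzmc was lost under 6 alternatives, among them doublets kept, at 0.85 (edgeR adjusted p = 0.458), and the top Gzmc barcode of each library left out, at 0.81 (edgeR adjusted p = 0.516). Prf1 was 511, 773, 1039 and 569.5 CPM in exhausted-like cells and 50.7, 60.3, 27.4 and 52.8 CPM in stem-like cells of the same 4 libraries, with no overlap, and its log2 fold change was 3.87 ± 0.26 (SE) (edgeR adjusted p = 1.86e-06). Gzmb was 216, 699.7, 160.3 and 256 CPM in stem-like cells, below the exhausted-like values, at a log2 fold change of 2.63 ± 0.33 (SE) (edgeR adjusted p = 0.000229). Gzma and Nkg7 were also higher in exhausted-like cells, by 2.81 ± 0.44 (SE) (edgeR adjusted p = 0.00139) and 0.97 ± 0.11 (SE) (edgeR adjusted p = 8.63e-05). Gzmk was 212, 11.3, 94.7 and 185 CPM in exhausted-like cells and 142, 109, 99.2 and 204 CPM in stem-like cells, which overlapped. Its log2 fold change of 0.08 ± 0.27 (SE) (edgeR adjusted p = 0.942) does not show that the states are equal.

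Antigen-experienced PD-1-negative CD8 cells, which had Cd44 but neither exhaustion nor naive markers, had some of the members above naive-like cells but not Prf1. Against naive-like cells, 4 of 6 tested members were higher, where 8.23% of 7530 genes were called, and the median log2 fold change was 1.38 (all genes -0.01). Gzmk was 85.1, 25.7, 148 and 264 CPM in these cells of the combination, IFNa 18, IFNa 23 and Control 11 libraries, and its log2 fold change over naive-like cells was 2.49 ± 0.45 (SE) (edgeR adjusted p = 0.00114). Gzmb rose by 2.02 ± 0.37 (SE) (edgeR adjusted p = 0.0012), Gzma by 1.96 ± 0.39 (SE) (edgeR adjusted p = 0.00313) and Nkg7 by 0.79 ± 0.13 (SE) (edgeR adjusted p = 0.000351) on the log2 scale, whereas Prf1, at 0.50 ± 0.36 (SE), was not called (edgeR adjusted p = 0.522). The Gzma call was lost when T cells were taken by receptor chain alone, at 0.32, when no UMI of other lineages was allowed, at 0.48, and without IFNa library 18, at 1.43, and the Gzmb call was lost with DESeq2 (adjusted p = 0.187) and without the combination library (edgeR adjusted p = 0.0705). The Gzmk call was lost with the receptor chain rule (edgeR adjusted p = 0.147).

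Exhausted-like cells exceeded antigen-experienced cells in 4 of 6 tested members, where 3.34% of 6321 genes were called, with a median log2 fold change of 1.73 (all genes 0.00). Prf1 rose by 3.20 ± 0.37 (SE) on the log2 scale (edgeR adjusted p = 0.00131), Nkg7 by 1.20 ± 0.14 (SE) (edgeR adjusted p = 0.00131) and Gzmb by 1.92 ± 0.31 (SE) (edgeR adjusted p = 0.00796). The Gzmb difference was 0.75 and not called when barcodes were thinned before gating (edgeR adjusted p = 0.185), and it was not called without IFNa library 23 (edgeR adjusted p = 0.0808). Gzmc was also called, with 4 UMIs in all the antigen-experienced cells, but not when barcodes were thinned before gating, at 0.14, or with doublets kept, at 2.25. Gzma, at 1.54 ± 0.47 (SE) (edgeR adjusted p = 0.112), and Gzmk, at 0.17 ± 0.37 (SE) (edgeR adjusted p = 0.905), were not called. The antigen-experienced gate of the combination library was shallow, with a median of 2284.5 UMIs per cell against 4527 to 6137 in the other 3 libraries, and held 634 CPM of 5 phagocyte markers against 12.01 to 45.6 CPM. The 11 NK markers summed to 822 and 627 CPM in IFNa 18 and 23, against 134 CPM in the combination and 240 CPM in Control 11, and the part of these in the results was not tested.

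**Figure D2:**
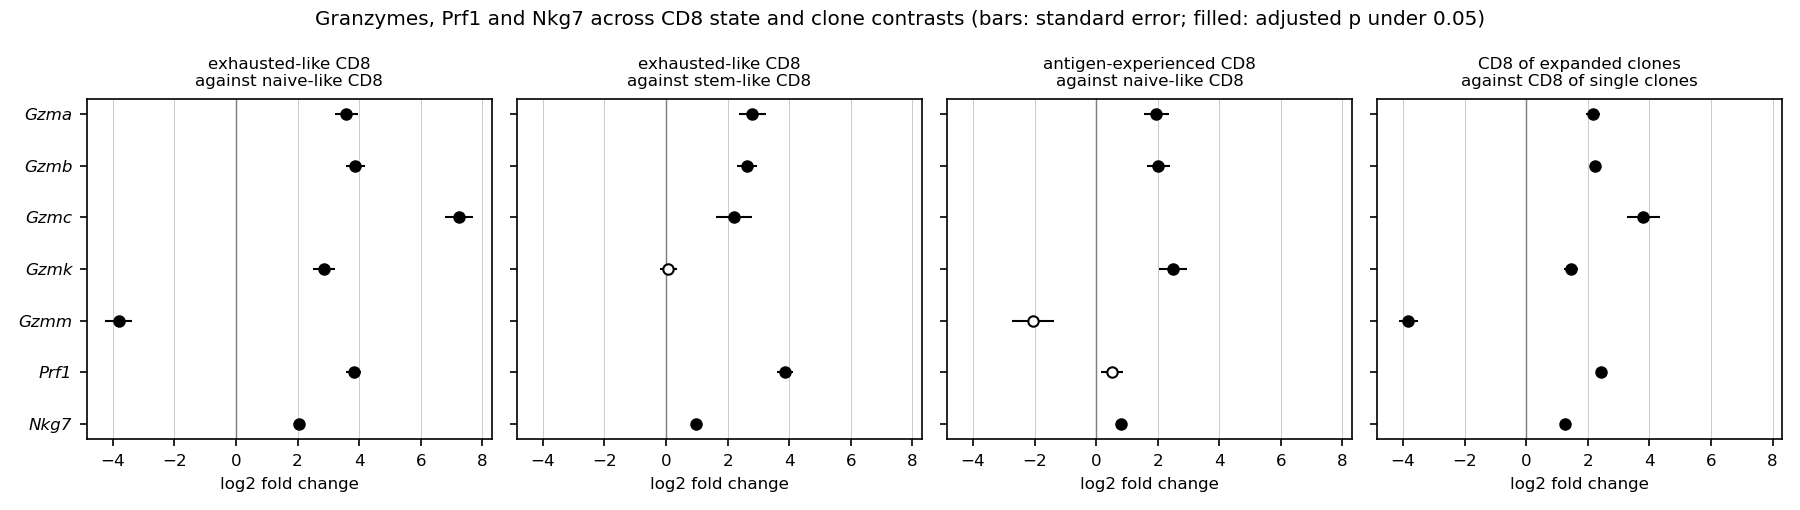
Log2 fold changes of the tested members on the x axis in 3 contrasts between CD8 states and in expanded against single clones, with standard errors as bars and filled points where the adjusted p was under 0.05. Gzmm lies below 0 where exhausted-like cells are set against naive-like cells, at -3.81, and Gzmk lies near 0 where they are set against stem-like cells, at 0.08.

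Proliferating CD8 cells, with at least 2 UMIs of Mki67 and Top2a, had more Gzma and Gzmb and less Gzmm than cells with none. These were 3 of 7 tested members, where 15.9% of 10226 genes were called, and the median log2 fold change was 0.72 (all genes -0.01). Gzma was 1348, 513, 907 and 718 CPM in proliferating and 391, 197, 475 and 389 CPM in non-proliferating cells of the combination, IFNa 18, IFNa 23 and Control 11 libraries, higher in each of them, at a log2 fold change of 1.16 ± 0.17 (SE) (edgeR adjusted p = 0.00043). Gzmb rose by 1.36 ± 0.28 (SE) (edgeR adjusted p = 0.00474), a direction that turned to -0.32 when barcodes were thinned before gating. Gzmm fell, at a log2 fold change of -1.77 ± 0.36 (SE) (edgeR adjusted p = 0.00492), and lost the call without the combination library (edgeR adjusted p = 0.0523) and with thinned gating (edgeR adjusted p = 0.0745).

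Gzmc in CD8 cells came from a small number of barcodes. In exhausted-like cells it was 47.1 CPM in the combination library, 275 and 257 CPM in IFNa libraries 18 and 23 and 710.5 CPM in Control library 11. A single barcode held 97 of 260 Gzmc UMIs there in the combination library, 51 of 73 in IFNa 18, 218 of 396 in IFNa 23 and 238 of 242 in Control 11. In the whole CD8 gate, 58, 16, 38, 5 and 1 cells had a Gzmc UMI in the combination, IFNa 18, IFNa 23, Control 11 and Control 25 libraries, out of 2395, 304, 498, 292 and 36 cells. The Control 11 barcode with 238 UMIs belonged to a clone of 22 barcodes. Naive-like CD8 cells held 4 Gzmc UMIs in all, in 4 cells, and the difference from exhausted-like cells was called, at 7.25 ± 0.46 (SE) on the log2 scale (edgeR adjusted p = 2e-07). The difference from stem-like cells, 2.20 ± 0.58 (SE) (edgeR adjusted p = 0.0346), was 0.81 and not called once the top Gzmc barcode of each library was left out (edgeR adjusted p = 0.516). Also in stem-like cells, 1 barcode of IFNa 23 held all 99 UMIs of its library.

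Gzmf, the rarest member, had 41 UMIs among all kept cells of the combination library, 20 in IFNa 23 and 0 in the other libraries. Of these, 33 UMIs in 7 cells and 12 UMIs in 3 cells were in CD8 cells, and 21 and 12 of those were in exhausted-like cells. Cells of expanded clones held 31 and 12 of them, and cells of single clones held 0. In IFNa 23, 9 of the 12 were in 1 barcode. NK cells held 0 Gzmf UMIs, and ILC1-like cells held 1. At this depth no test of Gzmf was possible under the low-count filter. Among the neighbours of Gzmc and Gzmf that are no part of the set, Gzmd and Gzme had 73 and 38 UMIs in 1 effector CD4 barcode of the combination library, out of 79 and 49 in its kept cells.

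**Figure D3:**
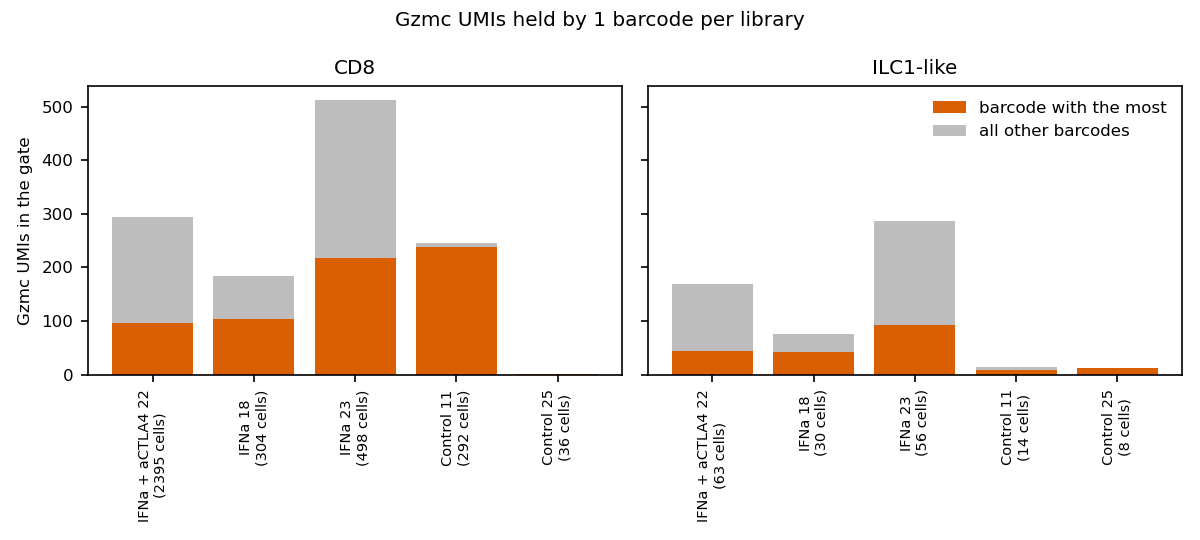
Gzmc UMIs in CD8 and in ILC1-like cells on the y axis, by library on the x axis, with the UMIs of the barcode that holds the most in orange and those of all other barcodes stacked above in grey. In CD8 cells 1 barcode of Control 11 holds 238 of 246 UMIs, whereas in ILC1-like cells of the combination library the top barcode holds 44 of 170.

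Conventional CD4 T cells had less of 6 of the 7 members tested than CD8 cells, where 12.3% of 10258 genes were called, with a median log2 fold change of -2.93 (all genes -0.01). In conventional CD4 cells Prf1 was 26.7 CPM in the combination library, 19.3 and 68.3 CPM in IFNa libraries 18 and 23 and 13.8 and 5.15 CPM in Control libraries 11 and 25. In CD8 cells it was 258 CPM in the combination library, 159 and 454 CPM in IFNa libraries 18 and 23 and 148 and 109.6 CPM in Control libraries 11 and 25. These did not overlap, with a log2 fold change of -3.17 ± 0.13 (SE) (edgeR adjusted p = 1.75e-07). In conventional CD4 cells Gzmb was 96.6 CPM in the combination library, 97.9 and 91.996 CPM in IFNa libraries 18 and 23 and 84.02 and 87.5 CPM in Control libraries 11 and 25. It was at least 283 CPM in CD8 cells, at -2.93 ± 0.23 (SE) on the log2 scale (edgeR adjusted p = 1.68e-05). Gzma, at -3.71 ± 0.26 (SE) (edgeR adjusted p = 7.86e-06), Gzmm, at -3.25 ± 0.42 (SE) (edgeR adjusted p = 0.000495), and Nkg7, at -1.75 ± 0.24 (SE) (edgeR adjusted p = 0.000662), also fell. In conventional CD4 cells Gzmk was 57.1 CPM in the combination library, 97.9 and 21.8 CPM in IFNa libraries 18 and 23 and 34.4 and 139 CPM in Control libraries 11 and 25, which overlapped the CD8 values, at -0.88 ± 0.41 (SE) (edgeR adjusted p = 0.218). Gzmc was called at -1.94 ± 0.56 (SE) (edgeR adjusted p = 0.0446) but not once the top CD8 barcode of each library was left out, at -0.73 (edgeR adjusted p = 0.410), nor with DESeq2 (adjusted p = 0.438) or without any of Control 11, IFNa 18 or the combination library.

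Regulatory CD4 cells carried Gzmb with little Prf1 or Gzma. Against effector CD4 cells they had more Gzmb and less Gzmk and Nkg7, 3 of 5 members tested, where 10.3% of 9388 genes were called, and the median log2 fold change was -1.37 (all genes -0.01). In regulatory cells Gzmb was 617 CPM in the combination library, 500.5 and 541 CPM in IFNa libraries 18 and 23 and 545 and 277 CPM in Control libraries 11 and 25. In effector CD4 cells it was 72.9 CPM in the combination library, 198 and 87.1 CPM in IFNa libraries 18 and 23 and 176 CPM in Control library 11. The groups did not overlap, and the log2 fold change was 2.24 ± 0.24 (SE), 4.71-fold (edgeR adjusted p = 9.98e-05), which was 1.52 and not called when barcodes were thinned before gating (edgeR adjusted p = 0.101). The Gzmb UMIs lay in 56, 51, 48, 60 and 6 regulatory cells of the combination, IFNa 18, IFNa 23, Control 11 and Control 25 libraries, and the top barcode held 144 of 709, 66 of 431, 173 of 531, 97 of 532 and 38 of 60 of them. Their Prf1 was 5.22 CPM in the combination library, 73.2 and 7.13 CPM in IFNa libraries 18 and 23 and 6.14 and 9.22 CPM in Control libraries 11 and 25. The IFNa 18 value stood apart from the rest, and the difference from effector cells, -1.80 ± 0.57 (SE), was not called (edgeR adjusted p = 0.0672).

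Regulatory cells had Nkg7 at 231 CPM in the combination library, 574 and 718 CPM in IFNa libraries 18 and 23 and 291 and 69.1 CPM in Control libraries 11 and 25. Effector CD4 cells had it at 931 CPM in the combination library, 1288 and 1968 CPM in IFNa libraries 18 and 23 and 407 CPM in Control library 11. Each library was lower in its own regulatory cells, and the log2 fold change was -1.37 ± 0.17 (SE) (edgeR adjusted p = 0.000306), which was -0.84 and not called with thinned gating (edgeR adjusted p = 0.399). Gzmk fell on the log2 scale by 2.69 ± 0.65 (SE) (edgeR adjusted p = 0.0172) and lost the call with DESeq2 (adjusted p = 0.0681), with T cells taken by receptor chain alone (edgeR adjusted p = 0.0566), with no UMI of other lineages (edgeR adjusted p = 0.0803) and without IFNa library 18 (edgeR adjusted p = 0.0652). Among regulatory cells, those with Ccr8 or Tnfrsf9 UMIs had more Nkg7, 1.78 ± 0.33 (SE) on the log2 scale (edgeR adjusted p = 0.00982), in 3 libraries, and this was 1 of 2 members tested, where 1.66% of 7416 genes were called (median of all genes 0.06). It was not called without Control 11 (edgeR adjusted p = 0.134) or without the combination library (edgeR adjusted p = 0.115). Gzmb, at 1.48 ± 0.46 (SE), was not called (edgeR adjusted p = 0.126).

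CD8 cells that shared a T cell receptor with another cell had more of every tested member but Gzmm. CD8 cells of clones with at least 2 barcodes differed from CD8 cells of single clones in all 7 members tested, where 28% of 9677 genes were called, and the median log2 fold change was 2.17 (all genes -0.01). Prf1 was 365, 552, 699 and 396 CPM in expanded clones of the combination, IFNa 18, IFNa 23 and Control 11 libraries, against 70.4, 56.9, 140.4 and 74.5 CPM in single clones, with no overlap, at a log2 fold change of 2.43 ± 0.15 (SE) (edgeR adjusted p = 7.15e-06). Gzmb was 1276, 1357, 1846 and 770.4 CPM in expanded clones, against 343, 229, 295 and 138 CPM in single clones, also with no overlap, at 2.25 ± 0.13 (SE) (edgeR adjusted p = 5.11e-06). Gzmm again ran the other way, at 2.78, 0, 3.56 and 6.90 CPM in expanded clones against 45.02, 23.2, 40.1 and 29.4 CPM in single clones, -3.83 ± 0.31 (SE) on the log2 scale (edgeR adjusted p = 2.51e-05). Gzma rose by 2.17 ± 0.23 (SE) (edgeR adjusted p = 9.99e-05), Gzmc by 3.80 ± 0.54 (SE) (edgeR adjusted p = 0.000684; 1.89 without the top Gzmc barcode of each library, edgeR adjusted p = 0.00729), Gzmk by 1.45 ± 0.23 (SE) (edgeR adjusted p = 0.00122) and Nkg7 by 1.27 ± 0.09 (SE) (edgeR adjusted p = 1.39e-05). The gates were made without clone size, but exhausted-like cells were a large part of the big clones, so state and clone size were not separated.

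Single large clones differed in which granzymes they held. There were 15 CD8 clones of at least 20 barcodes, 13 in the combination library, 1 in IFNa 23 and 1 in Control 11. Cells of 1 clone share their source, so these values are a description. The largest combination clone, of 175 barcodes, had 665 CPM of Gzma, 1431 of Gzmb, 354 of Gzmk and 543 of Prf1. The IFNa 23 clone, of 118 barcodes, had 1304 CPM of Gzma, 3284 of Gzmb, 71.96 of Gzmk and 895 of Prf1, and 72.9% of it was exhausted-like. It held 3240 of the 5007 Gzmb UMIs (64.7%) and 1287 of the 2752 Gzma UMIs of that library's CD8 cells. The Control 11 clone, of 22 barcodes, had 1161 CPM of Gzma, 1067 of Gzmb, 81.4 of Gzmk and 599.8 of Prf1, and held 249 of its library's 571 CD8 Gzmb UMIs.

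Between the combination clones, Gzma ran from 5.999 CPM in a clone of 22 barcodes with 366 CPM of Gzmk and 726 CPM of Gzmb to 1458 CPM in a clone of 28 barcodes with 2281 CPM of Gzmb. No other clone of the 15 had more Gzmk than the first of these. Gzmk was as low as 5.39 CPM, 1 UMI, in a clone of 20 barcodes. Gzmb stayed between 633 and 2281 CPM and Nkg7 between 1776 and 3554 CPM in all 13. Prf1 ran from 76.03 to 653 CPM.

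**Figure D4:**
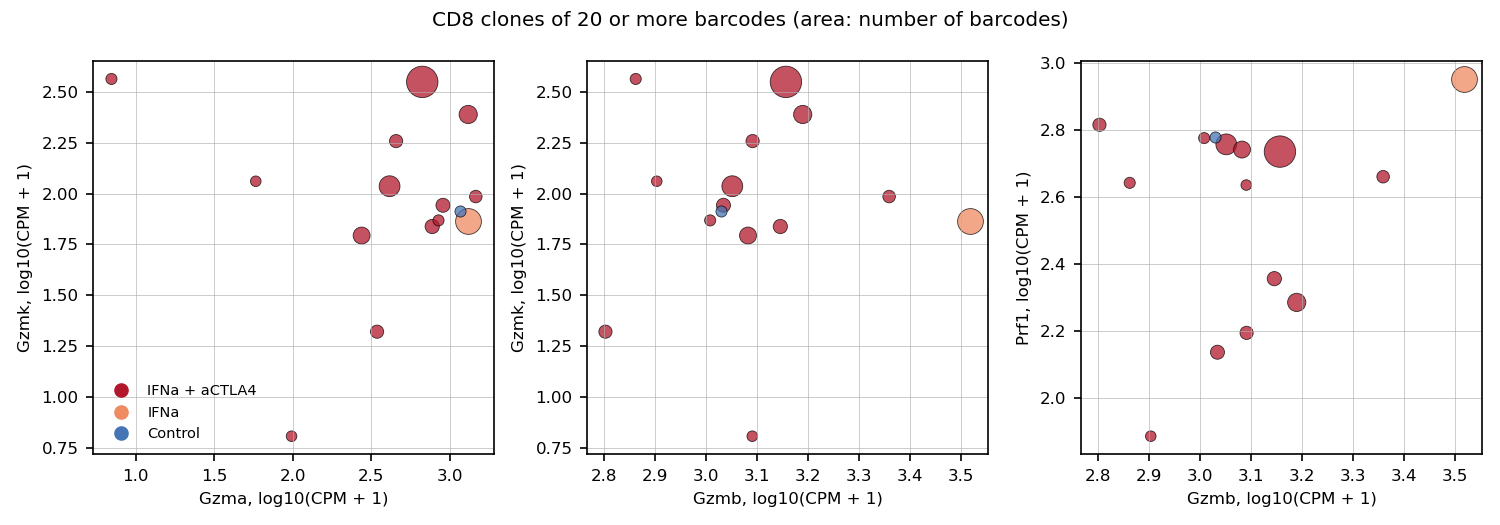
Each point is a CD8 clone of at least 20 barcodes, its area the number of barcodes and its colour the treatment, with levels as log10(CPM + 1) of Gzmk against Gzma, Gzmk against Gzmb, and Prf1 against Gzmb on the y and x axes. The IFNa 23 clone has the highest Gzmb, 3284 CPM, and the combination clone with the lowest Gzma, 5.999 CPM, has 366 CPM of Gzmk.

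Shares of cells with a UMI show whether a level came from many cells. To set gates of different depth side by side, each cell was thinned to 2000 UMIs, shallower cells were left out, and exact binomial (Clopper-Pearson) intervals cover counting error only. Thinned, the share of NK cells with Gzma was 91.9% in the combination library, 96.1% and 92.3% in IFNa libraries 18 and 23 and 94.2% and 92.3% in Control libraries 11 and 25 (unthinned 93.9% to 97%), against 0% to 0.971% of B cells. The share of NK cells with Prf1 was 73.7% in the combination library, 71.9% and 63.1% in IFNa libraries 18 and 23 and 68.8% and 57.7% in Control libraries 11 and 25 (unthinned 83.5% to 91.9%). The share with both Gzmb and Prf1 was 65.7% in the combination library, 67.5% and 53.9% in IFNa libraries 18 and 23 and 44.2% and 53.8% in Control libraries 11 and 25 (unthinned 73.4% to 87.9%). Median depths were 5637 to 7130 UMIs in NK and 3711 to 5128 UMIs in B cells, and at most 2 NK cells and 87 B cells of a library fell under 2000 UMIs. Most NK cells of each library thus showed Gzma, and most showed Prf1.

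The share of exhausted-like CD8 cells with Gzmb was 58.5% in the combination library, 60.9% and 62.9% in IFNa libraries 18 and 23 and 48.4% in Control library 11 (unthinned 70.7% to 76.4%). The share with both Gzmb and Prf1 was 31.95% in the combination library, 34.8% and 40.3% in IFNa libraries 18 and 23 and 25.8% in Control library 11 (unthinned 57% to 64.5%). The share of regulatory CD4 cells with Gzmb was 28.9% in the combination library, 30% and 31.9% in IFNa libraries 18 and 23 and 32.8% and 15% in Control libraries 11 and 25 (unthinned 30% to 50.5%). For Prf1 it was 0% in the combination library, 11% and 1.06% in IFNa libraries 18 and 23 and 0% and 0% in Control libraries 11 and 25 (unthinned 2.61% to 14.9%), and Gzmb with Prf1 in at most 4% of any library. B cells had Gzmb in 0% to 0.644% (unthinned 0% to 2.35%) and Prf1 in 0% to 0.46%. The thinned regulatory cells thus had Gzmb well above the B cell share and, outside IFNa 18, Prf1 at or near it. With 20 regulatory cells in Control 25, a share of 0% there sets only a loose limit. Median depth was 5967 to 8134 UMIs in regulatory and 7841 to 8455.5 UMIs in exhausted-like cells, with at most 1 and 8 cells of a library left out.

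Gzmk and Gzmb were found both together and apart in CD8 cells. Thinned, the share of exhausted-like cells with Gzmk was 23.5% in the combination library, 0% and 15.7% in IFNa libraries 18 and 23 and 25.8% in Control library 11 (unthinned 8.33% to 51.6%). The share of stem-like cells with it was 18.2% in the combination library, 27.3% and 18.2% in IFNa libraries 18 and 23 and 37.5% in Control library 11 (unthinned 23.9% to 47.1%). B cells showed it in 0% to 0.139%. Both Gzmb and Gzmk were found in 16.2% (95% interval 13.1% to 19.6%) of exhausted-like cells of the combination library, and Gzmk without Gzmb in 7.33%. In its stem-like cells the order turned, with both in 5.28% and Gzmk without Gzmb in 12.9%. The other libraries held 11 to 161 cells of these states, and the stem-like median depth was 5772 to 8777 UMIs, with at most 12 cells left out. The share of ILC1-like cells with Gzmc was 13.1% in the combination library, 10.3% and 21.4% in IFNa libraries 18 and 23 and 14.3% in Control library 11 (unthinned 16.7% to 28.6%), against 0% to 1.11% of NK cells and 0% of B cells, at an ILC1-like median depth of 5247 to 6183 UMIs with at most 2 cells left out.

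IFNa treatment went with more Gzmb in NK cells. The question here was whether IFNa alone or with anti-CTLA-4 changed the granule genes of each kind of cell, tested in 8 gates. Among the pairs of a member and a gate, edgeR called 4 of 47 for IFNa against Control (26 at an unadjusted p under 0.05), 3 of 47 for the combination against Control (13 unadjusted) and 1 of 47 for the combination against IFNa (11 unadjusted), and DESeq2 called 1, 3 and 1. Over all genes, edgeR's unadjusted share was lowest in naive-like CD8 cells, at 300, 335 and 156 of 7965 in the same order. It was highest in antigen-experienced CD8 cells, at 280, 313 and 141 of 2719 genes. These comparisons share libraries, the first pair of them the Controls, so their values are given side by side.

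In NK cells Gzmb was 1372 CPM in the combination library, 1996 and 1479 CPM in IFNa libraries 18 and 23 and 600.3 and 738 CPM in Control libraries 11 and 25. Both IFNa libraries and the combination library stood above both Control libraries. The log2 fold change was 1.39 ± 0.18 (SE) for IFNa against Control, 2.61-fold (edgeR adjusted p = 8.75e-05), and 1.00 ± 0.21 (SE) for the combination against Control (edgeR adjusted p = 0.0229). It was the only one of 7 members called in NK cells in either comparison, where 0.7% and 0.588% of 9006 genes were called, and the combination differed from IFNa by -0.39 ± 0.21 (SE) (edgeR adjusted p = 0.999; 0.0444% of genes called). Without IFNa library 18 the calls were lost, at 1.13 (edgeR adjusted p = 0.171) and 1.00 (edgeR adjusted p = 0.370), and the combination call was lost with thinned gating, at 0.82 (edgeR adjusted p = 0.510). The level was spread over many cells outside Control 25, since the top barcode held 39 of 973 Gzmb UMIs in the combination library, 97 of 3094 and 95 of 2555 in the IFNa libraries and 25 of 544 and 29 of 144 in the Control libraries.

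Mature NK cells were 609 of the 769 NK cells. Their Gzmb was 1532 CPM in the combination library and 2293 and 1651 CPM in IFNa libraries 18 and 23. In Control libraries 11 and 25 it was 691 and 980.3 CPM, below both IFNa libraries. Other NK cells had Gzmb at 915 and 791 CPM in IFNa libraries 18 and 23, with 26 and 28 cells. In Control library 11, with 13 cells, they had 313 CPM. The combination and Control 25 libraries held under 10 such cells and were left out. The part of NK maturity in the treatment difference was not tested. Thinned, Gzmb was found in 83.8% (95% interval 75.1% to 90.5%) of NK cells of the combination library. In IFNa 18 and 23 the share was 82.7% (95% interval 77.2% to 87.3%) and 73.8% (95% interval 68.1% to 78.9%), and in Control 11 and 25 it was 54.3% (95% interval 45.7% to 62.8%) and 61.5% (95% interval 40.6% to 79.8%). Unthinned, the shares were 92.9% in the combination library, 90.6% and 86.03% in IFNa libraries 18 and 23 and 75.5% and 76.9% in Control libraries 11 and 25. The interval of Control 25, with 26 cells, overlapped those of the treated libraries, and that of Control 11 did not. The other granule members did not pass in NK cells, with log2 fold changes for IFNa against Control of 0.33 ± 0.14 (SE) for Gzma (edgeR adjusted p = 0.79), 0.39 ± 0.17 (SE) for Prf1 (edgeR adjusted p = 0.785) and 0.04 ± 0.15 (SE) for Nkg7 (edgeR adjusted p = 1). The 11 NK markers summed to 4829 to 5191 CPM over the 5 NK sums, and the 4 B cell markers to at most 8.46 CPM.

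In exhausted-like CD8 cells, where library 11 was the only Control with at least 10 cells, Gzmb was 1731 CPM in the combination library, 1622 and 2569.6 CPM in IFNa libraries 18 and 23 and 898 CPM in Control library 11. All treated libraries were above the Control library. In this gate, as in the antigen-experienced and ILC1-like gates, the IFNa libraries alone give a spread within a group. The log2 fold change was 1.23 ± 0.25 (SE) for IFNa against Control (edgeR adjusted p = 0.0313; 0.404% of 9413 genes called) and 0.96 ± 0.27 (SE) for the combination against Control, not called (edgeR adjusted p = 0.23; 0.499% of genes called). The IFNa call was lost with DESeq2 (adjusted p = 0.0975) and without the combination library (edgeR adjusted p = 0.0712). In Control 11, 125 of 306 Gzmb UMIs were in 1 barcode, and 180 of 430 were in 1 barcode of IFNa 18. The clone with the most held 2796 of 3961 Gzmb UMIs in IFNa 23 and 218 of 306 in Control 11.

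Gzmc in exhausted-like cells was called lower in IFNa against Control, at -1.43 ± 0.26 (SE) (edgeR adjusted p = 0.0123), in the combination against Control, at -3.90 ± 0.33 (SE) (edgeR adjusted p = 2.69e-06), and in the combination against IFNa, at -2.47 ± 0.29 (SE) (edgeR adjusted p = 0.000137; 0.467% of genes called). The comparisons with Control rested on 1 barcode, the one that held 238 of 242 UMIs. With the top Gzmc barcode of each library left out, the difference turned to 3.77 for IFNa against Control (edgeR adjusted p = 0.00021) and to 1.17 for the combination against Control (edgeR adjusted p = 1.00), while that of the combination against IFNa was -2.60 (edgeR adjusted p = 2.5e-05). The first was not called by DESeq2 either (adjusted p = 0.117).

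In antigen-experienced CD8 cells Gzmb was 836 CPM in the combination library, 394 and 729 CPM in IFNa libraries 18 and 23 and 48.1 CPM in Control library 11. The Control value was 4 UMIs in 2 of 10 cells, and the log2 fold changes were 3.52 ± 0.67 (SE) for IFNa (edgeR adjusted p = 3.08e-05; 2.72% of 2719 genes called) and 4.14 ± 0.69 (SE) for the combination (edgeR adjusted p = 1.57e-07; 4.56% called) against Control. With doublets kept neither was called, at 3.52 and 4.19 (edgeR adjusted p = 0.531 and 0.159). The IFNa call was also lost with DESeq2, at 3.55 (adjusted p = 0.240), and without the combination library, at 3.51 (edgeR adjusted p = 0.525), and the combination call with thinned gating, at 1.15 (edgeR adjusted p = 0.260). The depth and marker values of this gate given above move with these groups.

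ILC1-like cells showed larger differences that were not called. Gzmb was 1573 CPM in the combination library, 1730.1 and 531 CPM in IFNa libraries 18 and 23 and 133 CPM in Control library 11, with 10 UMIs in the 14 Control cells. The log2 fold changes were 3.21 ± 0.69 (SE) for IFNa (edgeR adjusted p = 0.226; 0.0612% of 6535 genes called) and 3.61 ± 0.74 (SE) for the combination (edgeR adjusted p = 0.191; 0.0306% called) against Control. Gzma differed by 2.68 ± 0.56 (SE) for IFNa against Control (edgeR adjusted p = 0.216), with 17 of the 18 Control UMIs in 1 barcode. With thinned gating these differences were called, at 4.14 and 3.32 for Gzmb and 3.97 for Gzma. That setting picks cells by thinned counts and sums their full counts. NK cells whose Eomes UMIs were lost in thinning can thus enter the ILC1-like gate, and their part was not tested. In CD8 cells as a whole no member was called by edgeR in any comparison (0.506%, 0.642% and 0.253% of 11063 genes were called in IFNa against Control, the combination against Control and the combination against IFNa). CD8 Gzmb was 947 CPM in the combination library, 484 and 1204 CPM in IFNa libraries 18 and 23 and 283 and 559 CPM in Control libraries 11 and 25, where an IFNa value fell below a Control value, at 1.03 ± 0.42 (SE) (edgeR adjusted p = 0.976), and was called without IFNa library 18, at 1.51 (edgeR adjusted p = 0.000278). Gzmb in conventional CD4 cells was within 84.02 to 97.9 CPM in all 5 libraries, at 0.13 ± 0.26 (SE) for IFNa against Control (edgeR adjusted p = 1; 0.247% of 9301 genes called). In regulatory CD4 cells it was 0.30 ± 0.26 (SE) (edgeR adjusted p = 0.96; 0.165% of 9687 genes called), and Nkg7, at 1.68 ± 0.39 (SE), was not called (edgeR adjusted p = 0.166). Without Control library 11 both were called, at 0.92 for Gzmb and 3.23 for Nkg7, and without Control library 25 Nkg7 was, at 1.17. Each of these fits had a lone Control library. Naive-like CD8 cells had no call among 6 members tested, where 0.389%, 0.628% and 0.264% of 7965 genes were called in IFNa against Control, the combination against Control and the combination against IFNa, and these fits turned on the Control libraries. Naive-like Gzma was 159.6 CPM in the combination library, 41.8 and 52.02 CPM in IFNa libraries 18 and 23 and 9.51 and 1348 CPM in Control libraries 11 and 25, and library 25 held only 10 such cells. Without Control library 25, which is also what a minimum of 20 cells removes, Gzma was called higher against Control, at 2.19 for IFNa (edgeR adjusted p = 0.00918) and 3.95 for the combination (edgeR adjusted p = 6.33e-13), and Gzmb for the combination, at 1.23 (edgeR adjusted p = 0.0269). Without Control library 11, Gzma was called lower, at -4.64 for IFNa (edgeR adjusted p = 0.000115) and -2.90 for the combination (edgeR adjusted p = 0.00841). Gzma was also called lower for IFNa without IFNa library 18, at -3.29 (edgeR adjusted p = 0.000115), and without IFNa library 23, at -3.53 (edgeR adjusted p = 3.57e-06). The direction of naive-like Gzma against Control is therefore not settled by these libraries. The remaining comparisons of the combination with Control and with IFNa also held no called member, where 0.183% and 0.172% of genes were called in conventional CD4 cells, 0.413% and 0.0413% in regulatory CD4 cells, and, against IFNa alone, 0% in ILC1-like cells and 1.91% in antigen-experienced CD8 cells.

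**Figure D5:**
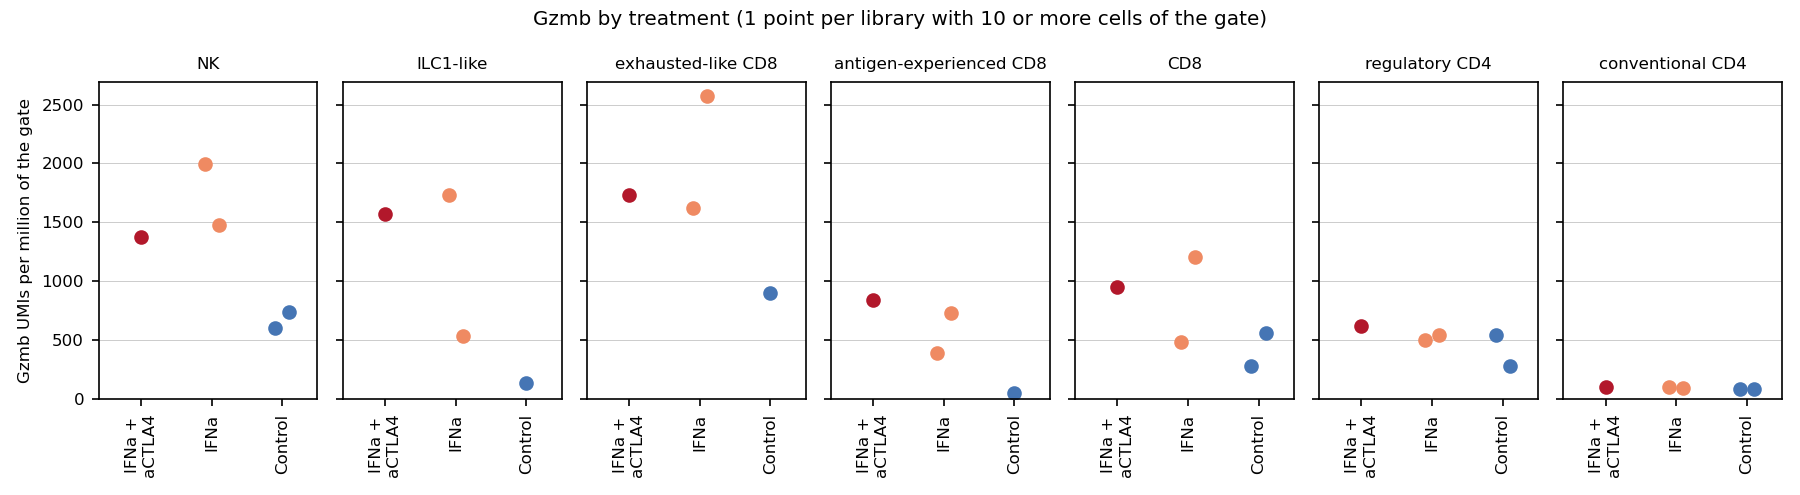
Gzmb in CPM of the gate on the y axis, 1 point per library with at least 10 cells of the gate, by treatment on the x axis in 7 gates. In NK cells the combination library at 1372 CPM and the IFNa libraries at 1996 and 1479 CPM lie above the Control libraries at 600.3 and 738 CPM, and in conventional CD4 cells all 5 lie between 84.02 and 97.9 CPM.

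Whether IFNa acted differently on 2 gates was tested as an interaction, and edgeR called 0 of 20 pairs of a member and a contrast. At an unadjusted p under 0.05 edgeR gave 8 of these 20, and DESeq2, which also called 0, gave 4. Over all genes edgeR gave 337 of 11017 in NK against CD8 and 555 of 11053 in conventional CD4 against CD8. In ILC1-like against NK cells it gave 468 of 8703. The IFNa effect on Gzmb was 0.39 ± 0.42 (SE) larger on the log2 scale in NK than in CD8 cells (edgeR adjusted p = 1; 0.0363% of 11017 genes called), 1.52 ± 0.60 (SE) larger in ILC1-like than in NK cells (edgeR adjusted p = 0.894; 0% of 8703 genes called), and -0.98 ± 0.37 (SE) in conventional CD4 against CD8 cells (edgeR adjusted p = 0.685; 0.353% of 11053 genes called). Calls in NK cells and not in other gates are therefore no sign of a difference between them.

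Other genes of the granule pathway were also higher in exhausted-like cells and in expanded clones. Values below are log2 fold changes ± SE of called genes. Of 11 genes of granule loading and release, 7 were higher in exhausted-like than in naive-like CD8 cells and 0 lower, with a median log2 fold change of 1.00, where 35.8% of all genes were called in either direction. They included Stx11, a syntaxin of granule fusion (3.59 ± 0.31), Cst7, an inhibitor of granule cathepsins (2.11 ± 0.23), Vamp8, a vesicle fusion protein (1.57 ± 0.19), and Srgn, the serglycin core to which granzymes bind (1.42 ± 0.10). In ILC1-like against NK cells 2 of the 11 were higher, Lyst, a regulator of granule size (1.16 ± 0.16), and Srgn (0.60 ± 0.11), where 8.42% of all genes were called, and the median was -0.02. Between mature and other NK cells edgeR called 0 of the 11, with a median of 0.15, where 3.62% of all genes were called. At an unadjusted p under 0.05 edgeR gave 3 of the 11, and DESeq2, which also called 0, gave 1. In expanded against single clones 7 were higher, with a median of 0.55, where 28% of all genes were called.

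Of the serpins, which include inhibitors of granzyme B, the 4 tested were all higher in exhausted-like than in naive-like cells, where 35.8% of all genes were called, with a median log2 fold change of 2.34. Serpinb9, the granzyme B inhibitor, was at 1.98 ± 0.24 and Serpina3g at 2.57 ± 0.25. Serpinb9b, a relative of Serpinb9, stood at -5.90 ± 0.43 in ILC1-like against NK cells, -8.18 ± 0.23 in CD8 against NK cells and 2.28 ± 0.31 in mature against other NK cells. In regulatory against effector CD4 cells, Serpinb9 was at -1.47 ± 0.30, the 1 inhibitor of 4 tested that edgeR called. DESeq2 called 0 of the 4 (1 at an unadjusted p under 0.05). Of 17 regulators and partner effectors, 14 were higher and 1 lower in exhausted-like than in naive-like cells (median 2.60; 35.8% of all genes called), with the largest in Csf2 (7.58 ± 0.53) and the chemokines Ccl3 (6.76 ± 0.39) and Ccl4 (6.13 ± 0.23). In regulatory against effector CD4 cells 1 was higher and 10 lower (median -0.99; 10.3% of all genes called), led by Ifng, the interferon gamma gene (-6.98 ± 0.24). For IFNa against Control in NK cells, the medians of the granule, inhibitor and regulator lists were 0.11, -0.03 and -0.06, against -0.01 over all genes. EdgeR and DESeq2 each called 0 of these 11, 5 and 16 tested genes in that comparison, where edgeR called 0.7% of all 9006 genes. At an unadjusted p under 0.05 edgeR gave 2, 1 and 4 of them, and DESeq2 gave 0, 1 and 2. Over all genes edgeR gave 491 of 9006. In exhausted-like cells 1 of the 17 regulators and partners was called for IFNa against Control, the chemokine Xcl1 (1.83 ± 0.27). Of all 9413 genes tested there, 0.404% were called. There edgeR and DESeq2 each called 0 of 11 granule genes (0 under an unadjusted p of 0.05 by either tool) and 0 of 4 inhibitors (1 under 0.05 by either tool).

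Over 82 sums of a T, NK or ILC1 gate in a library, Pearson's r of log2(CPM + 1) was 0.82 between Gzma and Prf1, 0.80 between Gzma and Nkg7 and 0.80 between Prf1 and Nkg7. Gzmb had r of 0.66 with Nkg7, 0.59 with Prf1 and 0.04 with Gzmk. These sums share libraries, cells and depth, so r is a description. The comparison held 11343 genes, members among them. Of those that are no members, the patterns most like Gzma were those of Ctsd and Klre1 (both 0.89) and Tm6sf1 (0.89). The most like Gzmb were AW112010 (0.75), Pglyrp1 (0.74) and Nbeal2 (0.74), and the most like Gzmc were Gm20658 (0.67) and Vipr2 (0.65). Gzmk was most like Ybx3 (0.60), Gm44175 (0.57) and Thy1 (0.56), and Gzmm was most like Dnajc15 (0.75), Haao (0.68) and Eomes (0.66). Prf1 was most like Setbp1 (0.82), Klre1 (0.81) and Klri2 (0.79), and Nkg7 was most like Klrc1, Slamf7 and Xcl1 (0.88 each).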

How the data were processed

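Single-cell suspensions of metastatic liver were sorted for viable cells and loaded for 10x RNA and V(D)J libraries, per the labels' protocols. The values are UMI counts per gene and barcode in filtered matrices, deposited by the authors. The submitters' processing notes name Cell Ranger 7.0.1 and the build mm10. How close copies were resolved is not given in the sources used here.

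Barcodes with under 200 genes or over 15% mitochondrial UMIs were dropped, and scored doublets, set at 0.8% per 1000 barcodes, were removed with a scikit-learn 1.9.0 neighbour score. Cells were gated by UMIs of lineage and state genes and receptor chains, never by the 8 genes. UMIs were summed per gate and library with at least 10 cells. Gates were compared with edgeR 4.0.16 (R 4.3.3) quasi-likelihood tests, low counts filtered, TMM scaling and the library as a block, and treatments in 1 model holding every group. P-values were Benjamini-Hochberg adjusted over all genes tested, with a threshold of 0.05. Gates that share a library come from the same sample, so the block is the design and no further pairing was checked. DESeq2 1.42.0, unfiltered counts, other gate rules, kept doublets, a minimum of 20 cells and libraries left out in turn were alternatives, and leaving out the top Gzmc barcode of each library was chosen after seeing the data. Both procedures were tested on simulated data.

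Named genes are all 8 members, up to 4 called genes of each pathway list by size of change, and the 3 genes most like each member. A gene of the naive-like gate and a gene among those most like Gzmc are not reported here. The members, gates and lists were chosen with earlier results of these data known. Promoter sequences are from RefSeq (GRCm38.p6).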

Additional observations from a re-analysis of the deposited data

How the results depend on the processing

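Of 64 called pairs of a member and a comparison, 37 kept their call under every alternative run and 27 lost it under at least 1, most of them named above. Of 168 pairs not called, 75 were called under at least 1 alternative, among which 47 were called with 1 library left out and 5 with the opposite sign. The gate contrasts gave 56 calls, 42 with no replicate block, 70 with no filter on low counts and 51 to 60 with 1 library left out. For IFNa against Control, 4 calls became 20 with no filter on low counts, 1 with DESeq2, 9 with barcodes thinned before gating and 2 to 9 with 1 library left out. For the combination against Control, 3 became 12, 7 (thinned) and 3 to 8. For the combination against IFNa, 1 became 10 with no filter, 2 with doublets kept, 2 with T cells by receptor chain alone, 4 with no UMI of other lineages, 7 with thinned gating, 2 without the top Gzmc barcodes, 3 with at least 20 cells and 1 to 7 with 1 library left out. The difference of the IFNa effect between gates, 0 calls, became 5, 1 (doublets kept), 1 (no UMI of other lineages), 6 (thinned) and 0 to 5. The causes were not tested.

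Directions that reversed, as log2 fold changes, were these. In proliferating against other CD8 cells, thinned gating gave -0.32 for Nkg7 and -0.32 for Gzmb. Without the top Gzmc barcodes, Gzmc gave 1.90 in CD8 cells (combination against Control), 3.77 and 1.17 in exhausted-like cells (IFNa and combination against Control) and -1.81 for the IFNa effect in NK against CD8 cells. In naive-like CD8 cells for IFNa against Control, Gzma gave 2.17 with no UMI of other lineages, 2.05 with thinned gating, neither called (edgeR adjusted p = 0.986 and 0.424), and 2.19 with at least 20 cells, which was called (edgeR adjusted p = 0.00918), Gzmk 0.35 with thinned gating, and Gzmb 0.12 and 1.34 with no UMI of other lineages and with thinned gating. Thinned gating gave 0.41 for Gzmk in antigen-experienced cells (combination against Control). With 1 library left out, the range was -2.06 to 0.015 for Gzma in CD8 cells and -4.64 to 2.19 in naive-like CD8 cells (IFNa against Control), -2.73 to 2.80 for Gzmc in CD8 cells and -1.97 to 0.45 for Gzmk in NK cells (combination against Control).

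The combination has 1 library, and the exhausted-like, antigen-experienced and ILC1-like gates have 1 Control library, so their spread is borrowed from the other groups. Gzmf and the ILC1-like, stem-like and antigen-experienced sums of Control 11 rest on few UMIs.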

Other observations

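Some gates outside the T, NK and ILC1 cells also held UMIs of the members. In the basophil gate of Control 11, 14 cells held 9 Gzmb UMIs in 3 cells (99.7 CPM), 36 Nkg7 UMIs in 6 cells (399 CPM), 12 Gzmc UMIs in 1 cell and 0 Gzma UMIs. In plasmacytoid dendritic cells of IFNa 18, 11 of 33 cells held 33 Gzma UMIs (198 CPM), while the other libraries' cells held at most 1. In epithelial cells of IFNa 23, 36 of 194 cells held 132 Gzma UMIs (49.2 CPM), 27 of them in 1 barcode. In neutrophils of IFNa 18, 1 barcode held 29 of 32 Nkg7 UMIs. Whether free RNA or mixed droplets account for these UMIs was not tested.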
